A study of Mus musculus with 12 samples.

Results

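Microglia of the hippocampus were compared with microglia of the cortex, striatum and cerebellum of the adult mouse brain. The 3 hippocampus libraries of the 12 in all were taken by their region label and set against the equally weighted mean of the other 3 regions, with 3 libraries each. The mice of all 4 groups were C57BL/6N males, wild type, at postnatal day 60, with no treatment named in the labels. Region tissue was pooled from 3 to 5 mice, and 3000 live cells that were TMEM119+, CD45 low and CD11b+ were sorted for a library. Each hippocampus library is therefore a mixed sample of several animals in which single cells, hippocampal subfields and individual mice cannot be told apart, and the gate itself selects cells with TMEM119 on their surface. Whether the 3 pools of a region held different mice is not stated in the labels. The p-values therefore rest on a spread among libraries that may be partly or wholly technical.

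Microglia are the resident macrophages of the brain. They survey the tissue through purinergic and chemokine receptors, clear dying cells and synapses with the help of complement and phagocytic receptors, and digest what they take up in lysosomes. In the hippocampus, a region needed for memory in which new neurons are made in the adult dentate gyrus, microglia are known for engulfing dying newborn cells. The comparison asks whether their RNA in the healthy adult differs from that of microglia elsewhere.

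The hippocampus libraries held 9394829, 10842544 and 12897889 counts, inside the range of the other libraries (6479839 to 14833340). They detected 12214, 13614 and 12920 genes, against 10929 to 13582 elsewhere, so hippocampus 2 had the most detected genes of the 12 libraries. Striatum 2 stood apart: it had no count for 986 of the 10018 genes that averaged 50 counts or more, against 4 to 44 such genes in each of the other 11 libraries. Results that rest on it are given with and without it. Levels are in CPM (counts scaled to the same library total) with library sizes scaled by the trimmed mean of M values (TMM), and differences are log2 values from the edgeR fit, hippocampus minus the mean of the other 3 regions.

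The hippocampus libraries carried the RNA of microglia at the top of their expression range. Per kilobase of exon, the abundant genes included C1qb, a chain of the complement starter C1q, at 3522 ± 539 RPKM (SD, n = 3). Ctsd, a lysosomal protease, was at 2808 ± 579 RPKM, and Cst3, a secreted protease inhibitor, at 2177 ± 353 RPKM. P2ry12, the ADP receptor of ramified microglia, was at 1914 ± 198 RPKM. In each of these 4 genes the hippocampus mean lay inside the range of the 9 other libraries.

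Markers of other cells took a small share of the reads, and their sums in hippocampus overlapped those of the other regions. The 25 homeostatic microglia genes summed to 45076 to 50622 CPM in hippocampus and to 43769 to 60226 CPM elsewhere. The 12 pan-neuronal markers summed to 16.9 to 45.6 CPM in hippocampus and to 6.37 to 39.0 CPM elsewhere. Of 12 genes that mark hippocampal neurons, C1ql2, C1ql3, Dsp and Fibcd1 had no count in the hippocampus libraries, and the list summed to 29.0 to 64.0 CPM there against 32.8 to 95.1 CPM elsewhere. Astrocyte markers summed to 37.6 to 105.0 CPM in hippocampus, oligodendrocyte markers to 147.0 to 169 CPM and endothelial markers to 18.3 to 40.5 CPM. Choroid plexus and ependymal markers were at 0.316, 57.7 and 1.48 CPM in hippocampus 1, 2 and 3 and at 0.076 to 876 CPM elsewhere, with the highest value in striatum 2. Markers of border-associated macrophages summed to 1078 to 1768 CPM against 903 to 2487 CPM elsewhere, nearly all of it from Stab1, Mrc1 and Dab2 in hippocampus. Monocyte and neutrophil markers summed to 7.20 to 10.7 CPM and lymphocyte markers to 116 to 149 CPM, nearly all of it from Cd79b, at 148, 148 and 114 CPM. Erythroid markers, mostly from the globin gene listed as Beta-s, were at 149.6, 108.9 and 21.5 CPM in hippocampus and 0.312 to 137 CPM elsewhere. Precursors of oligodendrocytes (3.37 to 12.9 CPM), pericytes and smooth muscle (5.13 to 8.85 CPM) and cerebellar neurons (4.97 to 12.4 CPM) left few reads in hippocampus. Striatal neuron markers summed to 20.4 to 36.3 CPM there, and cortical neuron markers to 494 to 751 CPM, nearly all from Mef2c, which microglia also express. In bulk RNA, fewer cells of a type and less RNA per cell cannot be told apart.

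**Figure D1:**
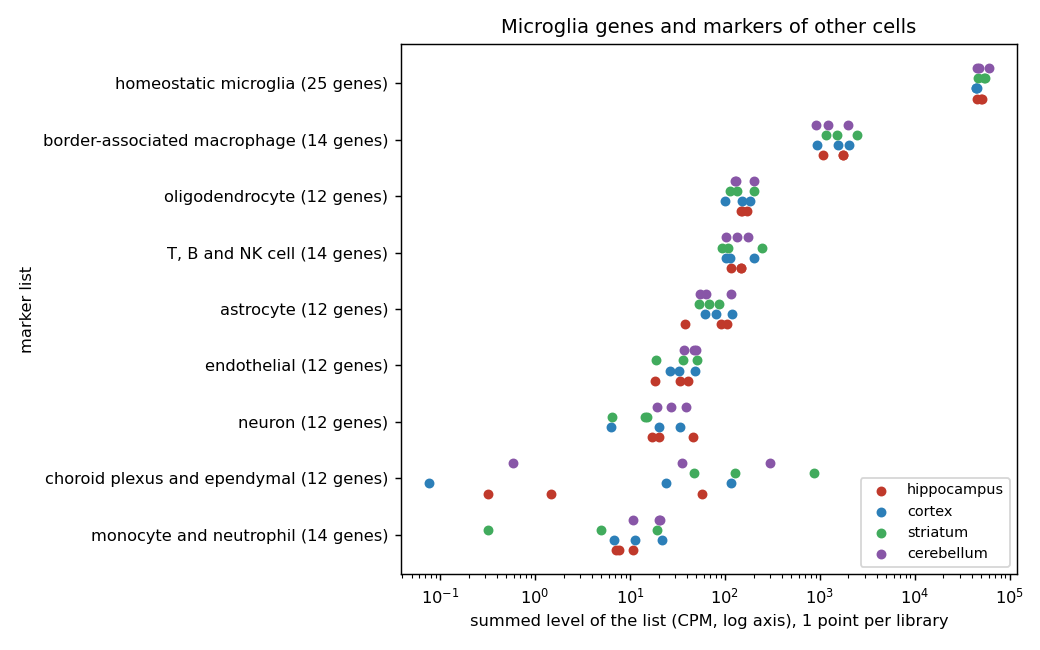
Summed level of each marker list (horizontal log axis, CPM) in each of the 12 libraries, 1 point per library, coloured by region. The hippocampus points (red) overlap those of the other regions in every list shown, and the homeostatic microglia sum of 45076 to 50622 CPM stands far to the right of the other lists.

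No gene differed between hippocampus and the other regions by the test. Of 12217 genes tested, the edgeR quasi-likelihood test with Benjamini-Hochberg adjustment called 0 (0%), and the smallest adjusted p was 1. With no adjustment, 193 genes (1.58%) had a p under 0.05, 96 higher (0.786%) and 97 lower (0.794%) in hippocampus. DESeq2 also called 0 genes (smallest adjusted p 0.0873, with 246 genes of unadjusted p under 0.05), and so did limma-voom (0.51 and 297 genes). Without striatum 2, 0 of 12803 genes were called (0%) and 390 had an unadjusted p under 0.05 (3.05%). The count at an unadjusted p under 0.05 was 318 without cerebellum 1 and 328 without striatum 3, with 0 genes called in either fit. The differences were spread evenly about zero: 6390 genes lay higher in hippocampus (52.3%) and 5827 lower (47.7%), with a median log2 difference of 0.02. Without striatum 2, 6608 of 12803 genes lay higher (51.6%).

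The libraries themselves gave a small set of genes with no overlap. All 3 hippocampus libraries lay above all 9 others in 41 genes (0.336%) and below them in 25 genes (0.205%), 66 genes in either direction (0.54%). The same count for cortex was 39 higher and 38 lower, for striatum 51 and 61, and for cerebellum 27 and 16, so the hippocampus count lay within the range of the other regions. Without striatum 2 the hippocampus counts were 58 (0.453%) and 48 (0.375%), and all 66 genes were among them. Fewer libraries overlap less often by construction, and leaving out cortex 1 gave 69 higher and 40 lower, cerebellum 1 67 and 40, and each hippocampus library 142 to 165 and 85 to 109. Leaving out cortex 2 or cortex 3 gave 44 and 41 lower genes. Of the 66 genes, 19 higher and 16 lower ones had a mean of at least 20 CPM, and 16 higher and 4 lower ones a mean under 5 CPM. At low levels the filter on low counts treats the directions unequally. A gene higher in hippocampus can pass through those libraries alone, while a lower one must pass through others. The split by direction under 5 CPM, and its part in the 41 and 25, therefore has no weight as a result.

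**Figure D2:**
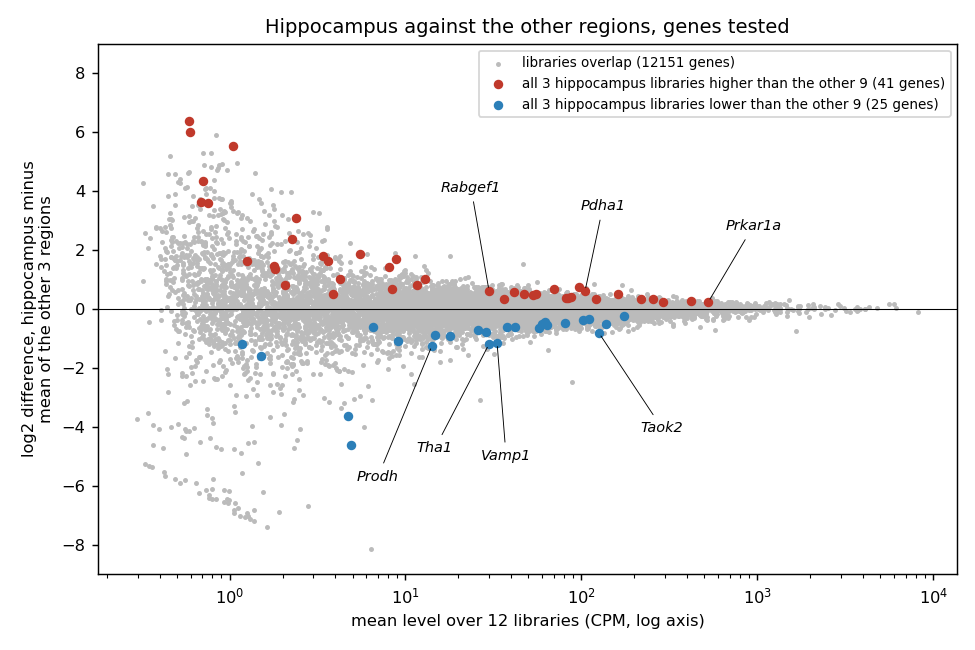
Log2 difference of hippocampus minus the mean of the other 3 regions (vertical) against the mean level over the 12 libraries (horizontal log axis, CPM) for 12217 genes. Red and blue points mark the 41 and 25 genes whose hippocampus libraries lie wholly above or below the other 9, and the scatter of the grey points narrows as the level rises.

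The hippocampus libraries did not resemble each other measurably more than they resembled the rest. Their mean Pearson correlation of log2 CPM was 0.9136 among themselves and 0.8937 with the other 9 libraries. The difference of 0.02 was not unusual among the 220 choices of 3 libraries (exact permutation test, two-sided p = 0.536, one-sided p = 0.286), where the smallest one-sided p is 0.00455. Without striatum 2 the difference was 0.003 (exact permutation test, two-sided p = 0.679). Among genes of at least 20 CPM, the median SD of log2 CPM over the 3 libraries was 0.284 in hippocampus, 0.365 in cortex, 0.354 in cerebellum and 0.406 in striatum.

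How large a difference these libraries leave room for depended on the level of the gene. For 7662 genes of at least 20 CPM, the 95% interval of the difference stayed within 2-fold in either direction in 5514 genes (72.0%) and within 1.5-fold in 1737 (22.7%). Over all tested genes it stayed within 2-fold in 5649 (46.2%), and for the 2264 genes under 5 CPM in 3. The median standard error of the log2 difference was 0.38 over all genes and 0.28 at 20 CPM or more.

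Pdha1 and Ak3 were among the genes with hippocampus libraries above all others. Pdha1, the catalytic E1 alpha subunit of pyruvate dehydrogenase that passes pyruvate into the citric acid cycle (chromosome X, 160122209 to 160138413, GRCm38), was at 138, 152 and 133 CPM in hippocampus 1, 2 and 3. Elsewhere it was at 75.5 to 124 CPM around a median of 82.4. All 3 hippocampus libraries lay above the highest other library, cerebellum 2, and the log2 difference was 0.61 (SE 0.18, 95% interval 0.22 to 0.99). Ak3, an adenylate kinase of the mitochondrial matrix (chromosome 19, 29020833 to 29047961), was at 92.0, 105 and 90.5 CPM against 36.7 to 85.7 CPM around a median of 57.6, a log2 difference of 0.67 (SE 0.24). The gap to the next library, striatum 3, was narrow for Ak3, and cortex stood nearer to hippocampus (log2 difference 0.41) than striatum (0.80) or cerebellum (0.79).

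Rabgef1, Cryzl1, Sptlc1, Prkar1a and Tcp1 also lay above all other libraries. Rabgef1, which activates the early endosome GTPase Rab5 (chromosome 5, 130171798 to 130214342), was at 38.7, 42.2 and 40.03 CPM in hippocampus against 19.8 to 34.4 CPM around a median of 26.9 (log2 difference 0.62, SE 0.24). Cryzl1, a quinone reductase-like gene (chromosome 16, 91689322 to 91728975), was at 66.5, 54.8 and 61.3 CPM against 35.3 to 51.1 CPM around a median of 44.2 (log2 difference 0.51, SE 0.19). Sptlc1, a subunit of the enzyme that starts sphingolipid synthesis (chromosome 13, 53332748 to 53377397), was at 68.3, 67.2 and 65.8 CPM against 32.5 to 61.6 CPM around a median of 48.9 (log2 difference 0.47, SE 0.23). The hippocampus libraries agreed closely in these genes, and the groups did not overlap. Prkar1a, the regulatory subunit that holds protein kinase A inactive (chromosome 11, 109649405 to 109669656), was at 596, 570.1 and 609.9 CPM against 456 to 540.0 CPM around a median of 516. Its log2 difference was small, at 0.23 (SE 0.11). Tcp1, a subunit of the cytosolic chaperonin (chromosome 17, 12915701 to 12925067), was at 192, 220.4 and 211 CPM against 77.6 to 189 CPM around a median of 148 (log2 difference 0.53, SE 0.20). For Tcp1 cortex stood nearer to hippocampus (log2 difference 0.24) than cerebellum (0.56) or striatum (0.78).

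In a pair of the separated genes the size of the difference rested on striatum 2. Mfge8, which bridges phosphatidylserine on dying cells to integrins of the phagocyte (chromosome 7, 79133768 to 79149060), was at 53.5, 56.0 and 52.7 CPM in hippocampus and at 48.5, 47.2 and 45.1 CPM in cortex. Striatum libraries held 43.2, 0.162 and 42.8 CPM, and cerebellum libraries 40.4, 36.6 and 29.1 CPM. Hippocampus was highest without overlap, and the log2 difference was 0.57 (SE 0.70) with striatum 2 and 0.38 without it. Tm7sf3, a multi-pass membrane protein gene (chromosome 6, 146602352 to 146642824), was at 131, 146 and 134 CPM in hippocampus against 15.7 to 116 CPM around a median of 92.7, the lowest value being that of striatum 2. Its log2 difference was 0.75 (SE 0.36), and 0.60 without that library.

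Other genes with the smallest unadjusted p lay higher in the hippocampus mean, with libraries that overlapped. Ccr1, a receptor for inflammatory chemokines (chromosome 9, 123962124 to 123968692), was at 188, 137 and 175 CPM in hippocampus and at 149.6, 194 and 135 CPM in cortex. In striatum it was at 68.6, 29.7 and 60.2 CPM, and in cerebellum at 102, 129 and 54.6 CPM. Hippocampus and cortex thus had like levels (log2 difference 0.06), and the overall log2 difference of 0.84 (SE 0.27) came from striatum (1.65) and cerebellum (0.81). Dab2, an endocytic adaptor that also marks border-associated macrophages (chromosome 15, 6299788 to 6440712), was at 456, 319 and 473 CPM against 238 to 433 CPM around a median of 282 (log2 difference 0.46, SE 0.18). The border-associated macrophage list as a whole had 6 of 13 tested genes higher in hippocampus in the main fit. That count changed with the fit. It was 11 of 13 with limma-voom (median 0.58) and with the replicate number as a block (median 0.47). Without hippocampus 3 it was 5 of 13 (median −0.42). The part of such cells in the Dab2 level was not tested.

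Nsun2, Wdr75, Tars, Gyg and Tshz1 likewise had a higher hippocampus mean and overlapping libraries. Nsun2, an RNA cytosine methyltransferase (chromosome 13, 69533746 to 69635780), was at 170.0, 159 and 143 CPM against 97.8 to 157 CPM around a median of 105 (log2 difference 0.45, SE 0.16). Wdr75, a ribosome assembly factor (chromosome 1, 45795166 to 45823619), was at 76.1, 55.9 and 46.2 CPM against 11.3 to 65.9 CPM around a median of 40.2 (log2 difference 0.74, SE 0.27). Tars, the threonyl-tRNA synthetase (chromosome 15, 11382301 to 11399665), was at 162, 127 and 143 CPM against 87.3 to 129 CPM around a median of 110.2 (log2 difference 0.40, SE 0.16). In all 3 genes a hippocampus library fell below the highest other library. Wdr75 was near its cortex level (log2 difference 0.14), and further from cerebellum (0.56) and striatum (1.51). For Nsun2 the log2 difference was 0.24 against cortex, 0.44 against cerebellum and 0.67 against striatum. Gyg, the glycogenin that primes glycogen (chromosome 3, 20122084 to 20155317), was at 38.4, 53.5 and 56.5 CPM against 25.1 to 41.9 CPM around a median of 29.9 (log2 difference 0.69, SE 0.24), and its groups overlapped only through striatum 2. Tshz1, a zinc finger transcription factor, was carried by the first library, at 45.4, 17.1 and 5.44 CPM in hippocampus against 1.18 to 22.6 CPM around a median of 6.47 (log2 difference 1.80, SE 0.64).

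**Figure D3:**
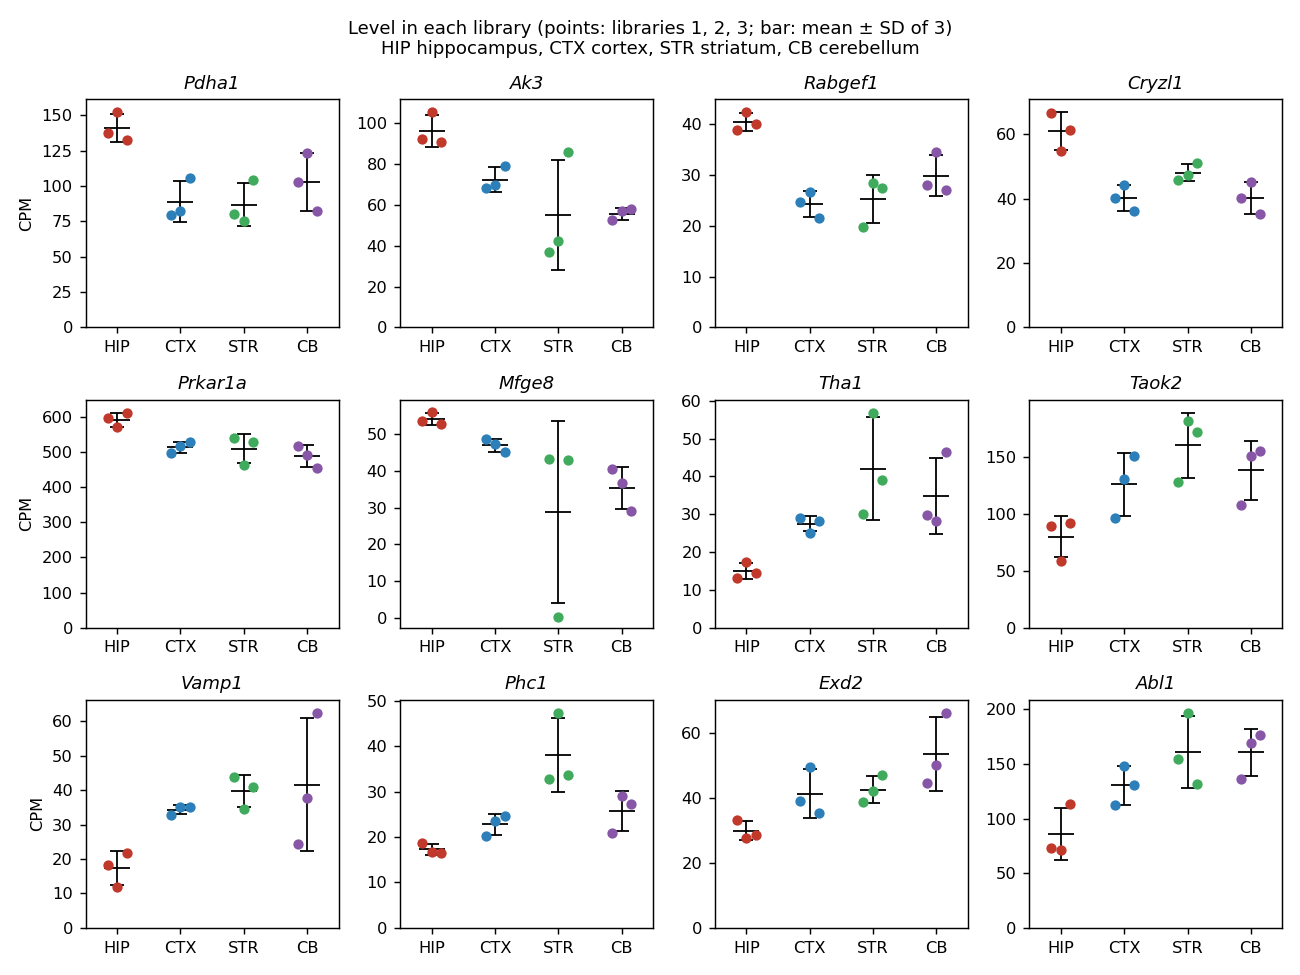
CPM of 12 genes (vertical axes) in each library, grouped by region on the horizontal axes, with the mean and SD of 3 libraries as bars. The first 6 genes have all hippocampus points above the others, the next 5 have them below, and Abl1 overlaps by 1 library; Mfge8 was at 0.162 CPM in striatum 2.

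Among genes lying lower in hippocampus, the smallest unadjusted p of those with at least 5 CPM belonged to Abl1, a tyrosine kinase that acts on the cytoskeleton (chromosome 2, 31688376 to 31804227). It was at 73.5, 71.5 and 113 CPM in hippocampus against 112 to 197 CPM around a median of 148 elsewhere. Hippocampus 1 and 2 lay below the other 9 libraries, hippocampus 3 overlapped cortex 1, and the log2 difference was −0.80 (SE 0.21, 95% interval −1.25 to −0.36). Taok2, a kinase upstream of stress-activated MAP kinases (chromosome 7, 126865678 to 126884703), was at 89.3, 58.8 and 91.6 CPM against 95.8 to 181 CPM around a median of 151, without overlap (log2 difference −0.81, SE 0.22). Vamp1, a vesicle SNARE of the synaptobrevin family (chromosome 6, 125215551 to 125245964), was at 18.2, 11.9 and 21.6 CPM against 24.3 to 62.4 CPM around a median of 35.01, also without overlap (log2 difference −1.15, SE 0.33). For Taok2 and Vamp1, hippocampus lay below each of the 3 regions on average, by log2 differences of −0.65 and −0.99 against cortex.

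The enzyme genes Tha1 and Prodh lay below all other libraries. Tha1, a threonine aldolase (chromosome 11, 117867952 to 117873481), was at 13.2, 17.5 and 14.4 CPM in hippocampus against 25.2 to 56.9 CPM around a median of 29.9. Prodh, the mitochondrial proline dehydrogenase (chromosome 16, 18060357 to 18090203), was at 7.06, 8.497 and 5.05 CPM against 11.9 to 26.1 CPM around a median of 13.8. In both genes the highest hippocampus library stayed under the lowest other one. The log2 difference was −1.19 (SE 0.31, 95% interval −1.86 to −0.52) for Tha1 and −1.24 (SE 0.43, 95% interval −2.17 to −0.30) for Prodh.

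Phc1, Exd2, Arfrp1, Rrnad1 and Zfp51 were also among the 25 genes below all other libraries. Phc1, a subunit of polycomb repressive complex 1 (chromosome 6, 122317731 to 122340561), was at 18.7, 16.7 and 16.5 CPM in hippocampus against 20.2 to 47.4 CPM around a median of 27.3 (log2 difference −0.70, SE 0.28). Exd2, an exonuclease gene (chromosome 12, 80463095 to 80500227), was at 33.3, 27.7 and 28.8 CPM against 35.3 to 66.2 CPM around a median of 44.5 (log2 difference −0.61, SE 0.24). Arfrp1, a small GTPase of the Golgi (chromosome 2, 181357690 to 181365404), was at 79.1, 82.5 and 86.0 CPM against 91.4 to 151 CPM around a median of 99.1 (log2 difference −0.38, SE 0.18). The gaps were narrow in each, as with Rrnad1 (48.5, 43.2 and 43.6 CPM against 52.7 to 82.6 CPM around a median of 65.03). For the zinc finger gene Zfp51, at 15.4, 18.01 and 21.4 CPM against 22.3 to 75.8 CPM around a median of 26.8, striatum 2 was the highest library, and the log2 difference of −0.77 became −0.55 without it.

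Further genes lay lower in the hippocampus mean, with overlapping libraries. Irf3, the transcription factor that starts type I interferon production (chromosome 7, 44997648 to 45002848), was at 92.8, 93.2 and 79.7 CPM against 83.7 to 156 CPM around a median of 133 (log2 difference −0.51, SE 0.18). Only striatum 2, at the low end, overlapped hippocampus for Irf3, and the same held for Dip2a (9.28, 10.7 and 7.46 CPM against 8.89 to 39.8 CPM around a median of 21.1). Usp35, a deubiquitinase (chromosome 7, 97309380 to 97332020), was at 9.59, 12.6 and 17.3 CPM against 15.5 to 65.8 CPM around a median of 37.97 (log2 difference −1.51, SE 0.46). Col27a1, a fibrillar collagen gene (chromosome 4, 63214004 to 63334991), was at 22.8, 16.99 and 42.8 CPM against 38.2 to 183 CPM around a median of 55.5, with the highest value in striatum 2 (log2 difference −1.40, and −1.19 without it). Slc12a9, a member of the cation-chloride cotransporter family, Rbak and Zfp710, both zinc finger genes, completed this set, with log2 differences of −0.51, −0.95 and −0.44.

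At the bottom of the expression range a few genes were seen almost only in hippocampus, and these were chosen after their values were seen. Ctla2a, a cysteine protease inhibitor gene, was at 2.74, 2.59 and 1.55 CPM in hippocampus and at most at 0.104 CPM in any other library. It passed the filter on low counts only through the hippocampus libraries, so its p has no weight as a rank. Its adjusted p was 1 in edgeR, and close copies in the genome make its counting uncertain. Chgb, the secretory granule protein chromogranin B, had 22, 13 and 1 counts in hippocampus 1, 2 and 3 and none elsewhere. Lrrc52 had 1, 1 and 5 counts in hippocampus and none elsewhere. No gene had at least 10 counts in each hippocampus library and none elsewhere.

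The genes that define homeostatic microglia were at like levels in hippocampus and elsewhere. Of 25 such genes 9 lay higher in hippocampus, with a median log2 difference of −0.02, beside 52.3% higher and a median of 0.02 over all genes tested. None was called, and the 95% interval of each of the 25 stayed within 2-fold. Csf1r, the receptor for the survival factor CSF1, was at 8202, 7290.4 and 7972 CPM against 5691 to 10740.1 CPM around a median of 8284, with an interval of −0.35 to 0.18. P2ry12 was at 5231, 5092 and 4298 CPM against 4085 to 6406 CPM around a median of 4436, with an interval of −0.26 to 0.33. Cx3cr1, the fractalkine receptor through which neurons signal to microglia, was at 3599, 3360.4 and 2512 CPM against 1769 to 3739.7 CPM around a median of 2778 (log2 difference 0.18, interval −0.29 to 0.65). Gpr34, a lysophosphatidylserine receptor, was at 2144, 2336 and 1731 CPM against 1578 to 2411 CPM around a median of 1909 (log2 difference 0.13, interval −0.16 to 0.41). In these 4 genes the hippocampus libraries lay inside the range of the others. Tmem119, which the gate selects, was at 2134, 1952 and 1712 CPM against 1082 to 3241 CPM around a median of 2043.

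**Figure D4:**
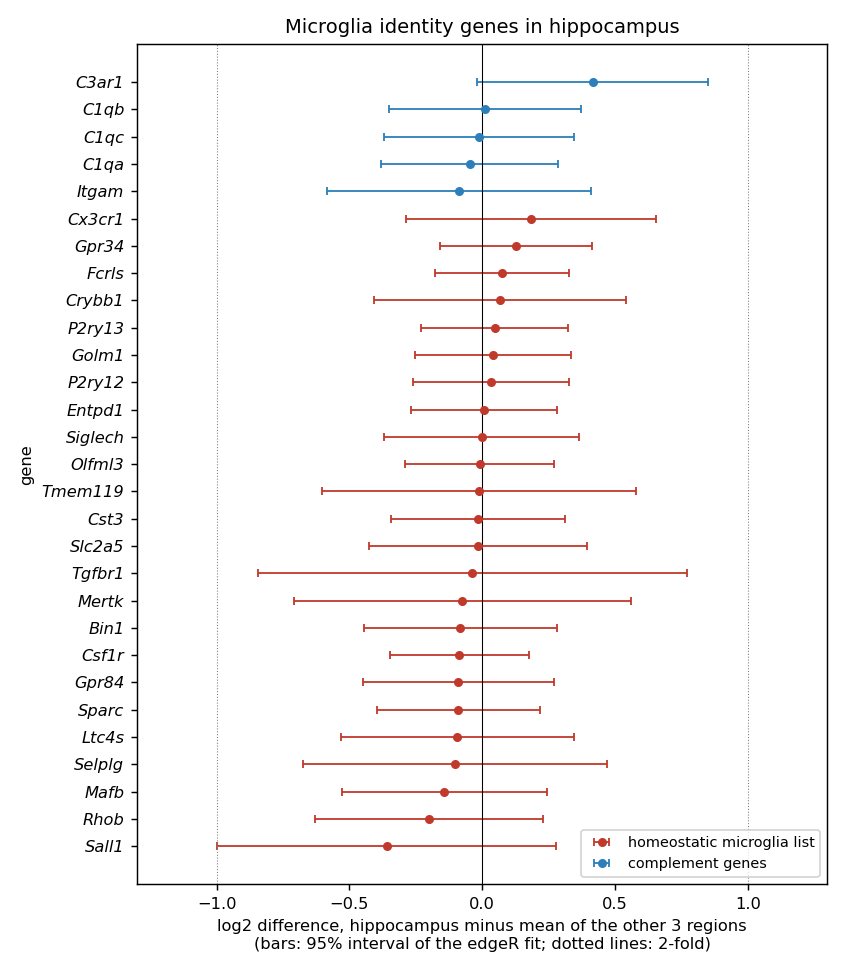
Log2 difference of hippocampus minus the other regions (horizontal) with its 95% interval for 24 of the 25 homeostatic microglia genes (red) and 5 complement genes (blue). Every interval of the red genes stays between the dotted lines that mark 2-fold.

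Transcription factors of microglia held 0 called genes. Of 24 tested, 6 lay higher in hippocampus (10 without striatum 2), with a median of −0.10. Without hippocampus 2, 10 lay higher and the median was −0.04. Sall1, which keeps microglia in their homeostatic state, was at 565, 322 and 668 CPM against 302 to 939.7 CPM around a median of 696 (log2 difference −0.36, interval −0.9997 to 0.28). Irf2 was at 67.6, 49.97 and 71.6 CPM against 60.5 to 99.6 CPM around a median of 77.4 (log2 difference −0.29, SE 0.20). Irf5, a factor downstream of Toll-like receptors, was at 356, 413 and 314 CPM against 362 to 498 CPM around a median of 383 (log2 difference −0.19, SE 0.15). The hippocampus libraries overlapped the others in all 3.

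Complement genes, which tag material for removal, showed no common direction in the main fit, and their balance changed with the fit. Of 15 tested, 8 lay higher, with a median of 0.01 and 0 called. With limma-voom 10 lay higher (median 0.15), and with its sample quality weights 13 (median 0.12). With the replicate number as a block 11 lay higher (median 0.15), and without cerebellum 2 only 7 (median −0.03). C3ar1, the receptor for the fragment C3a, was at 405, 407 and 459 CPM against 216 to 476 CPM around a median of 308 (log2 difference 0.42, interval −0.02 to 0.85). The second C5a receptor, listed under the symbol Gpr77, was at 31.7, 25.5 and 32.6 CPM against 6.16 to 27.1 CPM around a median of 21.1 (log2 difference 0.66, SE 0.37). Hippocampus lay in the upper part of the range for both receptors, overlapping 1 library each, cortex 3 for C3ar1 and cerebellum 2 for Gpr77. Among 24 phagocytosis genes 13 lay higher (median 0.03), with Mfge8, above, the separated member. Itgav, the integrin alpha v chain that binds Mfge8, was at 71.4, 48.0 and 109 CPM against 31.0 to 191 CPM around a median of 131 (log2 difference −0.74, SE 0.42), so its value lay lower where that of its ligand lay higher. Neither Mfge8 nor Itgav was called.

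Among antigen presentation genes, Cd74 had the smallest unadjusted p. This invariant chain of MHC class II was at 126, 62.0 and 95.1 CPM in hippocampus and at 104, 127 and 136 CPM in cortex. In striatum it was at 54.9, 18.4 and 45.6 CPM, and in cerebellum at 39.8, 39.8 and 42.3 CPM. Hippocampus lay above every striatum and cerebellum library and overlapped cortex, so the contrast with the mean of the regions (log2 difference 0.70, SE 0.29) joins regions of unlike level. The class II chain H2-Ab1 was at 12.2, 15.98 and 17.3 CPM against 6.35 to 14.2 CPM around a median of 9.58 (log2 difference 0.60, SE 0.44), and H2-Ob, a chain that restrains peptide loading, at 29.6, 30.8 and 29.5 CPM against 19.8 to 59.8 CPM around a median of 43.3 (log2 difference −0.37, SE 0.33). Of 6 tested class II genes 3 lay higher (median 0.02), and of 14 class I genes 6 (median −0.02), with 0 called in either list.

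Inflammatory signalling genes lay on both sides. Of 19 interferon response genes 7 lay higher (median −0.09), and Stat2, which carries the interferon signal to the nucleus, was at 69.4, 37.7 and 88.2 CPM against 50.04 to 183 CPM around a median of 79.4 (log2 difference −0.37, SE 0.29). Of 20 NF-kB and Toll-like receptor genes 9 lay higher (median −0.03). Nfkb2, a precursor of the non-canonical pathway, was at 51.01, 32.4 and 29.6 CPM against 31.1 to 104 CPM around a median of 56.0 (log2 difference −0.61, SE 0.34), and Rela, the p65 subunit, at 176, 152 and 177 CPM against 123 to 169.5 CPM around a median of 146 (log2 difference 0.22, SE 0.14). Of 16 chemokine and cytokine genes 9 lay higher (median 0.13), with Il1a, interleukin 1 alpha, at 200.2, 135 and 122 CPM against 94.2 to 156 CPM around a median of 128 (log2 difference 0.28, SE 0.21). Of 22 receptor genes 10 lay higher (median −0.04), and of 17 immediate early genes 12 (median 0.10). Without hippocampus 2 the medians were −0.07 for chemokines and cytokines and −0.002 for immediate early genes, of which 9 of 18 lay higher. Without hippocampus 3 they were −0.10 and 0.02. Cortex was higher than hippocampus in mean log2 deviation from all libraries for both lists. The values were 0.28 against 0.13 for chemokines and cytokines and 0.32 against 0.20 for immediate early genes. None of these lists held a called gene.

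Lysosomal genes lay mostly higher in hippocampus, by little, and mainly in 1 library. Of 34 tested, 29 lay higher, with a median of 0.11 and 0 called. Without hippocampus 2 the count was 18 of 34 and the median 0.01. Glb1, the lysosomal beta-galactosidase, was at 142, 140.3 and 138 CPM against 70.2 to 171 CPM around a median of 119 (log2 difference 0.29, SE 0.20), overlapping only striatum 2. Subunits of the proton pump that acidifies lysosomes had the widest differences: Atp6v1a was at 138, 146 and 166 CPM against 22.6 to 141 CPM around a median of 83.99 (log2 difference 0.73, SE 0.38), with the lowest value in striatum 2. Atp6v0d1 was at 134, 167 and 143 CPM against 68.1 to 168 CPM around a median of 115 (log2 difference 0.32, SE 0.19). Autophagy genes were balanced, with 14 of 24 higher (median 0.03). Ulk1, the kinase that starts autophagy, was at 50.2, 28.9 and 24.2 CPM against 33.8 to 149 CPM around a median of 60.9 (log2 difference −0.84, SE 0.31), and Atg14, a subunit of the lipid kinase complex that acts next, at 63.9, 41.01 and 49.4 CPM against 22.6 to 55.1 CPM around a median of 38.1 (log2 difference 0.44, SE 0.27).

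Oxidative phosphorylation and ribosomal protein genes were also highest, within hippocampus, in library 2. Of 36 nuclear oxidative phosphorylation genes 31 lay higher (median 0.15), and of 34 ribosomal protein genes 26 (median 0.07). Their mean log2 deviation from all libraries was −0.02, 0.47 and −0.17 in hippocampus 1, 2 and 3 for the first list and −0.03, 0.41 and −0.18 for the second. Cortex 1 was higher still, at 0.56 and 0.74. Without hippocampus 2, 12 of 36 and 7 of 34 lay higher, with medians of −0.08 and −0.12. Without cortex 1 the counts were 33 of 36 and 32 of 34, with medians of 0.22 and 0.21. Uqcrc2, a core subunit of complex III, was at 76.6, 148 and 100.3 CPM against 62.2 to 141 CPM around a median of 79.8 (log2 difference 0.31, SE 0.24). Some of the marker lists of other cells were high in hippocampus 2 too. Its 12 neuronal markers summed to 45.6 CPM and its 9 oligodendrocyte precursor markers to 12.9 CPM, the highest of the 12 libraries for both. The mean log2 deviation in hippocampus 2 was 1.91 for the 7 tested neuronal markers, 1.32 for the 8 tested astrocyte markers and 0.88 for the 6 tested oligodendrocyte markers. Not every marker list was high there. Endothelial markers summed to 18.3 CPM in hippocampus 2, the lowest of the 12 libraries, and the border-associated macrophage list deviated by −0.45. Oligodendrocyte markers summed to 152 CPM in hippocampus 2, below hippocampus 1 at 169 CPM. Astrocyte markers summed to 91.3 CPM in hippocampus 2, below hippocampus 3 at 105 CPM, where that list deviated by 1.03. The part of other cells in the values of hippocampus 2, here and in the lysosomal and disease-associated lists, was not tested. Glycolysis genes lay higher in 13 of 18 (median 0.16), and in 12 (median 0.12) without hippocampus 2. Cortex was higher than hippocampus for this list, with mean deviations of 0.26 and 0.12, against −0.27 in striatum and −0.12 in cerebellum. Pyruvate kinase, listed as Pkm2, was at 530.5, 766 and 725 CPM against 438 to 725 CPM around a median of 564 (log2 difference 0.28, SE 0.15). Hexokinase 3, Hk3, was at 379, 306 and 271 CPM against 289 to 518 CPM around a median of 361 (log2 difference −0.22, SE 0.15). No gene of these lists was called.

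Genes of the disease-associated state varied widely among libraries of every region. Of 24 tested, 18 lay higher (median 0.14), and without hippocampus 2 10 did (median −0.02). The mean deviation of the list was −0.35, 0.86 and 0.30 in hippocampus 1, 2 and 3. It ran from −0.64 to 0.92 in cortex, from −0.69 to 0.67 in cerebellum and from −0.67 to 0.41 in striatum. Clec7a, the beta-glucan receptor dectin 1, was at 21.2, 60.3 and 29.5 CPM in hippocampus against 1.16 to 51.7 CPM around a median of 4.63 (log2 difference 1.81, SE 0.85). Cortex 3, at 51.7 CPM, was the only other library above the lowest hippocampus library. Spp1, the secreted phosphoprotein osteopontin, was at 29.8, 553 and 161 CPM against 21.4 to 539 CPM around a median of 54.2, the hippocampus libraries spanning almost the full range seen elsewhere. Its log2 difference of 0.82 (SE 0.99) turned to −0.55 without hippocampus 2. Apoe, the lipid carrier, was at 3114, 6026 and 4159 CPM against 2147 to 6033 CPM around a median of 4091. No gene of the list was called, and Cd9 and Fth1 had log2 differences of 0.27 and 0.21.

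Lipid genes lay higher in 16 of 23, with a median of 0.24, and 0.12 without striatum 2, where several cholesterol synthesis genes were near 0. The mean deviation of the list was alike in hippocampus (0.29) and cortex (0.27), and lower in striatum (−0.46) and cerebellum (−0.10). Sqle, a rate-limiting enzyme of that pathway, was at 87.0, 41.9 and 71.6 CPM in hippocampus, at 49.6, 1.94 and 26.3 CPM in striatum and at 30.3, 38.7 and 11.02 CPM in cerebellum, and cortex held 96.3, 113 and 32.1 CPM. Plin2, which coats lipid droplets, was at 177, 372 and 229 CPM against 106 to 317 CPM around a median of 133 (log2 difference 0.64, SE 0.31). Srebf1, the factor that drives fatty acid synthesis genes, was even in hippocampus, at 157, 151 and 149 CPM against 66.3 to 155 CPM around a median of 131 (log2 difference 0.27, SE 0.19). None was called.

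The remaining lists held 0 called genes as well. Cell cycle genes lay higher in 14 of 22 (median 0.18), for example Pcna, the DNA polymerase clamp, at 147, 167 and 138 CPM against 76.9 to 198 CPM around a median of 114 (log2 difference 0.33, SE 0.21). The cell cycle median stayed between 0.13 and 0.25 over the alternatives. Cortex was as high as hippocampus, however. The mean deviation of this list was 0.13 in hippocampus, 0.12 in cortex, −0.11 in striatum and −0.14 in cerebellum. The counts were 10 of 14 for purinergic signalling (median 0.02) and 8 of 18 for TGF-beta signalling (median −0.05). They were 9 of 20 for synapse and neurotransmitter sensing (median −0.03) and 8 of 16 for the clock (median −0.08). Without hippocampus 2 the medians turned to 0.12 for TGF-beta signalling and 0.05 for the clock. Tef, a clock output factor, was at 25.4, 30.9 and 41.5 CPM in hippocampus against 40.5 to 69.6 CPM around a median of 49.7 (log2 difference −0.68, SE 0.26). Smad4, the shared mediator of TGF-beta signals, was at 104, 91.0 and 113 CPM against 52.9 to 118 CPM around a median of 75.2 (log2 difference 0.37, SE 0.22). Of 4 tested sex-linked genes 1 lay higher. No list, these included, held a gene called in hippocampus.

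**Figure D5:**
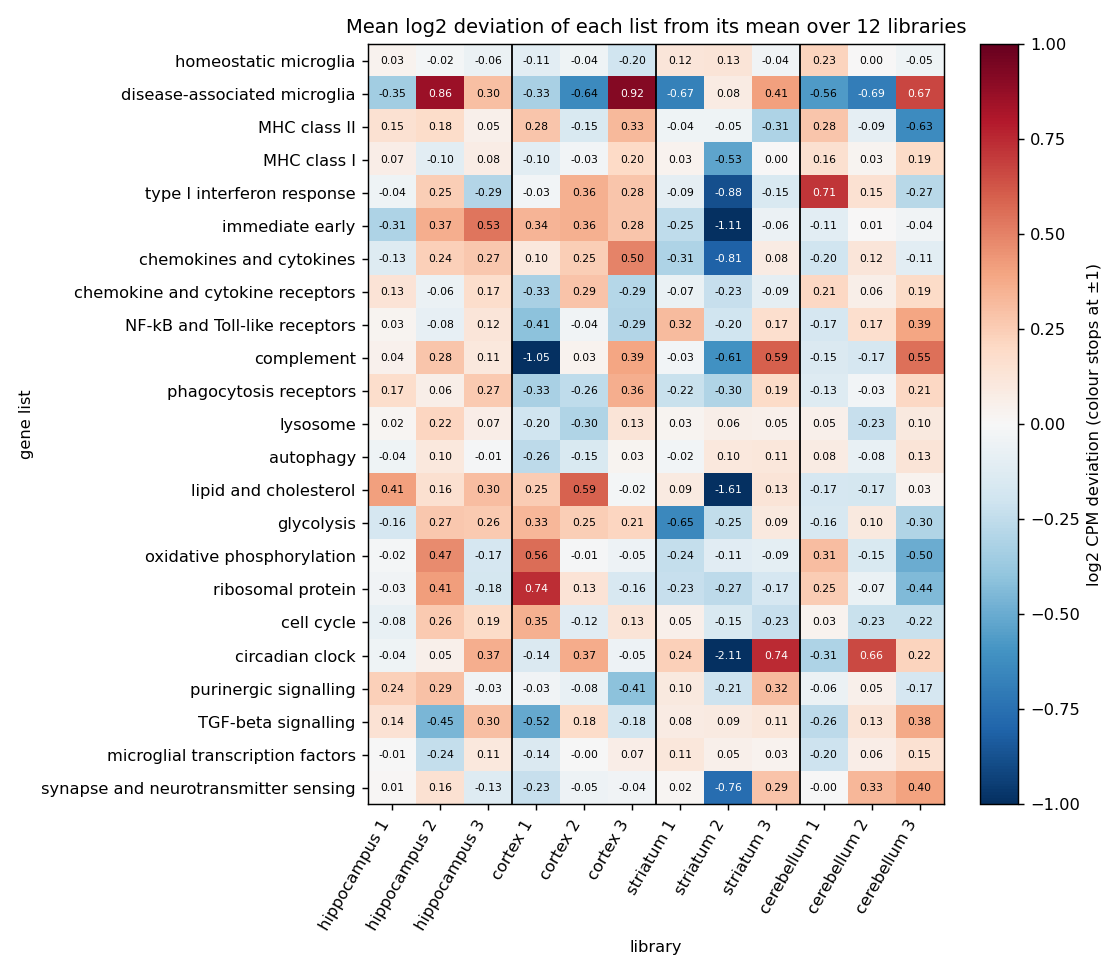
Mean log2 deviation of each gene list (rows) from its mean over the 12 libraries (columns), printed in each cell and coloured from −1 to 1. The disease-associated list runs from −0.35 to 0.86 within hippocampus and from −0.64 to 0.92 within cortex, and oxidative phosphorylation and ribosomal protein genes are high in hippocampus 2.

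The genes that varied most among the 3 hippocampus libraries, with a mean over the 12 libraries of at least 50 CPM, were Ttr, Spp1, Hif1an, Wdr62, Fam38a and Pank3. Ttr, transthyretin of the choroid plexus, was at 0, 43.0 and 0 CPM in hippocampus 1, 2 and 3, and at 0 to 579.8 CPM around a median of 35.1 elsewhere. Hif1an, an oxygen-dependent inhibitor of HIF1, was at 40.9, 8.40 and 65.7 CPM, and the mechanosensitive channel Piezo1, listed as Fam38a, at 60.1, 17.9 and 94.6 CPM. Hippocampus 2 was the high library for Ttr and Spp1 and the low one for Hif1an, Fam38a and Pank3 (89.2, 17.4 and 67.5 CPM). Wdr62 was high in hippocampus 3, at 19.2, 21.4 and 110.4 CPM.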

How the data were processed

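The authors deposited raw whole-number read counts, not normalized, with 1 row for each of 23337 gene symbols. Per the submitters' processing notes, the tools used were HTSeq, Picard, STAR 2.5.3a and Trim Galore 0.4.3, with mm10 as the build. Which annotation was counted, and with what strand setting, is not given in the sources used here. Per the labels' protocols, cDNA came from the Smart-Seq v4 kit (9 cycles) and Nextera XT libraries (380 pg, 13 cycles), which do not mark strand, so overlapping genes on opposite strands and near-identical copies are uncertain. No molecular identifiers are named, so reads need not be independent molecules.

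The fits were made with edgeR 4.0.16 under R 4.3.3. Genes kept by filterByExpr (minimum count 10, minimum total count 15) were scaled by TMM and fitted with a mean for each region over all 12 libraries, and the robust quasi-likelihood test was applied to the contrast of hippocampus with the equally weighted mean of the other regions. The threshold was a Benjamini-Hochberg adjusted p of 0.05. Alternatives were RLE and upper-quartile scaling, no filter, a mean of at least 50 counts, DESeq2 1.42.0, limma 3.58.1 (voom, with and without sample quality weights), 2 groups, a replicate block, and each library left out. Log2 CPM used a prior count of 2. Where no read was counted, up to 3 counts are possible by counting error alone, equal to 0.463 CPM at the lowest depth. Libraries of a region differed by more than sampling noise (chi-square over its degrees of freedom, 36.4 to 111), and each was treated as a separate sample. Coordinates and exon lengths are from GENCODE M21 (GRCm38, the assembly of mm10), which matched 22805 symbols, and older symbols were matched through RefSeq. Scripts were tested on simulated data.

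The region contrast, the 39 gene lists and the tests were chosen with earlier results of these data known. The rule for named genes took, per direction, the 12 genes with the smallest unadjusted p among those of at least 5 CPM (none passed the threshold) and the 8 separated genes with the widest gap among those of at least 20 CPM, 3 genes of smallest p from each list, 6 genes of widest spread within hippocampus of at least 50 CPM, and 10 fixed microglia genes. The choices by p, gap and spread skipped ribosomal protein genes, RIKEN clones and predicted genes. Of the genes it gave, those described were picked with their values known. A few of these genes are not reported here.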

Additional observations from a re-analysis of the deposited data

How the results depend on the processing

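The count of 0 called genes held in all 21 alternatives (9 settings and 12 fits that left out a library). At an unadjusted p under 0.05 the count was 197 with RLE scaling, 195 with upper-quartile scaling, 710 of 17184 genes with no filter, 101 of 10018 with a mean of at least 50 counts, 177 with 2 groups and 171 to 390 with a library left out. Genes lying wholly above the others numbered 27 with a mean of at least 50 counts, as fewer genes were tested, and 49 to 165 with a library left out. Those wholly below numbered 29 to 109 with a library left out. The likeness difference of 0.02 ranged from 0.0165 to 0.0289 over the other settings without a block and from 0.003 to 0.0225 with a library left out. With the replicate block it was 0.0757. There log2 CPM was first centred within each replicate number, so that value is not on the same scale (correlation −0.0071 within hippocampus and −0.0828 with the others).

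Not every same-numbered pair correlated above 0.1, so the numbers were not taken as pairing the libraries. The 18 same-numbered pairs had r from −0.12 to 0.287, with 4 above 0.1. The 36 other pairs had r from −0.225 to 0.198, with 2 above 0.1. Cortex and cerebellum were the exception, with r = 0.287, 0.101 and 0.224 for equal numbers and −0.225 to −0.001 for unequal ones. The remaining same-numbered pair above 0.1 was hippocampus 3 with cerebellum 3 (0.142). Hippocampus 3 had r = 0.09 with cortex 3 and 0.073 with striatum 3. The pairs of unequal number above 0.1 were hippocampus 2 with cortex 1 (0.198) and with cerebellum 1 (0.191). With the replicate number as a block, 0 genes were called, 201 had an unadjusted p under 0.05, and the likeness difference was 0.0757 (exact permutation test, p = 0.514).

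Of the genes described, the sign turned in Tmem119, Apoe, P2ry12 and Spp1. The log2 difference of Tmem119 was 0.0363 with limma-voom, 0.0496 with quality weights and 0.0542 with the replicate block. With a library left out, log2 differences ran from −0.119 to 0.134 for Tmem119, −0.21 to 0.27 for Apoe, −0.0228 to 0.116 for P2ry12 and −0.55 to 1.87 for Spp1. The cause was not tested. Depth limits the precision for genes under 5 CPM and for lists made of them.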

Other observations

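Other genes whose hippocampus libraries lay wholly outside the rest are named here after their values were seen. Ralgapa2, a Ral GTPase activating subunit, was at 0, 0.647 and 0.0777 CPM in hippocampus, at 0.912, 9.25 and 4.07 CPM in cortex, at 6.39, 4.53 and 4.20 CPM in striatum and at 2.20, 9.999 and 16.9 CPM in cerebellum. Prdm10, a zinc finger gene, was at 0, 1.11 and 0.311 CPM in hippocampus and at 1.58 to 15.4 CPM around a median of 3.36 elsewhere. Crmp1, a semaphorin signalling gene best known from neurons, was at 9.59, 5.63 and 5.67 CPM in hippocampus and at 0 to 2.22 CPM around a median of 0.599 elsewhere. The hippocampus libraries alone were enough for Crmp1 to pass the filter on low counts, so its separation has no weight. The 12 pan-neuronal markers summed to 16.9 to 45.6 CPM in the same libraries, and the part of neuronal RNA in Crmp1 was not tested. Tmem30a, a subunit of lipid flippases, was at 493, 483 and 477 CPM against 243 to 467 CPM around a median of 437, and Arcn1, a coat subunit of Golgi vesicles, at 291, 275 and 335 CPM against 179.9 to 273 CPM around a median of 253. None of these genes was called, and the adjusted p of each was 1 in edgeR.

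The share of genes at an unadjusted p under 0.05 differed between tools on the same 12217 genes, from 193 in edgeR to 246 in DESeq2, 297 in limma-voom and 667 in limma-voom with sample quality weights. The last, which gives less weight to libraries that stand apart, came closest to a call, with a smallest adjusted p of 0.0598. The common biological coefficient of variation of the edgeR fit was 0.605. Which of these tools describes the spread of the hippocampus libraries best was not tested.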
